A study of Mus musculus with 4 samples.

Results

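The 10 genes described here belong to the NF-kB pathway and were followed in microglia of mice fed cuprizone, with and without a deletion of Prmt1, the main enzyme that places asymmetric methyl groups on arginine. They were found by their symbols among the 32285 genes of the tables and comprise 5 subunits (Nfkb1, Nfkb2, Rel, Rela and Relb), 3 inhibitors and feedback genes (Nfkbia, Nfkbiz and Tnfaip3) and 2 target genes (Tnfaip2 and Icam1). All 10 passed the filter on low counts, as did 13815 genes in total. Single cells were sequenced from 2 PRMT1FL mice (FL), which carry floxed Prmt1 alleles and no Cre and are labelled wild type, and from 2 PRMT1Cx3cr1-KO mice (KO, PRMT1FL/FL;Cx3cr1-CreERT, labelled PRMT1-KO), in which a tamoxifen-inducible Cre is made from the Cx3cr1 locus. All 4 C57BL/6 mice received tamoxifen at 5 to 6 wk of age per the methods of the study, and then 0.2% cuprizone, which chelates copper and strips myelin from the brain, for 5 wk. In the sample labels the same age is tied to the diet. Cx3cr1 is also active in border macrophages and monocytes, and the Cre allele and the deletion cannot be told apart because no mouse carried Cre without floxed alleles. Cells were sorted as CD45+ CD11b+, which keeps other brain myeloid cells, and each mouse gave 1 droplet library.

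NF-kB is a family of transcription factors that act as dimers. In resting cells most dimers are held in the cytoplasm by inhibitor proteins of the IkB family, and signals from Toll-like, cytokine and TNF receptors activate a kinase complex that marks the inhibitors for breakdown and frees the dimers to enter the nucleus. Among the genes then switched on are the inhibitors themselves, so Nfkbia and Tnfaip3 transcripts are widely used as readouts of recent pathway activity. In microglia the pathway is known for driving cytokine and chemokine genes after injury.

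The promoters are shown first for the genes that the results turn on, for Nfkbia, Rel and Tnfaip3, which followed each other across cell states in both genotypes, and for Tnfaip2, which followed them in FL mice and less closely in KO mice. In mm10 with GENCODE vM21 annotation, Nfkbia lies at chr12:55489410-55492647 on the minus strand, Rel at chr11:23736847-23770970 on the minus strand, Tnfaip3 at chr10:19000910-19015657 on the minus strand and Tnfaip2 at chr12:111442469-111455018 on the plus strand, and all are protein coding. RefSeq promoter windows of GRCm38.p6, from 250 bases before to 50 bases after each start site, were found for 7 of the 10 genes (not for Nfkbiz, Nfkb1 and Relb) and searched on both strands for the NF-kB consensus of 10 bases, counting overlapping matches. A match was present for 4 genes (Nfkbia, Nfkb2, Rel and Tnfaip3) and for none of Rela, Tnfaip2 and Icam1. Nfkb2 and Tnfaip3 have several windows. Counted by window, 6 of the 10 windows of these genes held a match, beside 4.51% of all 32851 windows. A match describes letters and does not show binding, and the absence of one speaks only of this window. The stretches are written 5′ to 3′ on the gene's strand with the matched letters in capitals. Nfkbia (chr12:55492648-55492747, minus strand) has its match 29 bases before the start site, Rel (chr11:23770971-23771089, minus strand) has 2 overlapping matches at 92 and 91 bases before it, and Tnfaip3 (chr10:19015411-19015440, minus strand) has 1 at 12 bases before it and another 125 bases before it that is not shown. The far end of the Tnfaip2 window (chr12:111442411-111442468, plus strand) holds no capitals because nothing matched. It lies 250 to 193 bases before the RefSeq start site and so, counted from that site, covers other positions than the 3 stretches above. The GENCODE gene of Tnfaip2 begins at 111442469, directly after this stretch, and the rest of the searched window lies within that gene. The Tnfaip3 stretch also lies within its GENCODE gene, which reaches 19015657. For both genes the RefSeq and GENCODE start sites thus differ. Whether matches go with levels was not tested. Across states, Pearson r with Nfkbia was 0.98 for Tnfaip3, 0.92 for Rel and 0.85 for Nfkb2, which have matches. It was 0.97 for Icam1, 0.80 for Tnfaip2 and 0.64 for Rela, which have none.
Nfkbia: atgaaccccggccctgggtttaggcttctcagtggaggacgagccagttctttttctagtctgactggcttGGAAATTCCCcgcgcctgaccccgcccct
Rel: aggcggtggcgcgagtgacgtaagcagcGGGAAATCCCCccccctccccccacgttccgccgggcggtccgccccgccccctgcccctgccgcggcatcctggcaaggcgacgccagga
Tnfaip3: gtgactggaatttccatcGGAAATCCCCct
Tnfaip2: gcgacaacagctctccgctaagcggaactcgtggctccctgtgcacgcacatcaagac

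The 4 libraries held 76943248 to 99559644 unique molecular identifiers (UMIs, tags that count each captured RNA molecule once), and 8170 to 11427 cells per mouse passed the study's limits. Between 31 and 46 barcodes were shared by any pair of libraries, at most 0.563% of the smaller one. Microglial clusters held 10963 and 7801 cells of FL mice and 10187 and 10688 cells of KO mice, with all 8 markers of the microglial list detected and a median of 6235 to 7070 UMIs per cell. Levels are given as CPM, the UMIs of a gene scaled to an equal total of UMIs in each sum of cells, and are compared between mice and cell states but not between genes, since tags from the 3′ end are not scaled by transcript length. Overlap of mice was judged on CPM. The log2 fold changes of edgeR use a further scaling between libraries (TMM), so they can differ slightly from ratios of CPM. Prmt1 itself was at 90.8 and 83.9 CPM in FL mice and 70.2 and 70.6 CPM in KO mice, lower in both KO mice (log2 fold change -0.39, SE 0.07, adjusted p = 0.0758, edgeR), and the tag count does not separate intact from recombined transcripts. Haemoglobin transcripts, a list of 4 erythroid genes, differed between the genotypes, with summed levels of 241 and 93.9 CPM in microglia of FL mice against 0.0613 and 0.0213 CPM in those of KO mice. The 8 border macrophage markers summed to 83.1 and 77.8 CPM in FL and to 140 and 282 CPM in KO microglia, while 14 dissociation-related immediate early genes overlapped between genotypes at 10397, 10008, 11522 and 8496 CPM, and the part of these lists in the results was not tested.

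The first comparison asked whether the NF-kB genes differed between genotypes over all microglia. In the 5 subunits the mice overlapped. Rela, which encodes the main activating subunit, stood at 41.9 and 37.7 CPM in FL mice and at 41.6 and 37.8 CPM in KO mice, so that each genotype had 1 mouse near each value (39.8 ± 2.97 against 39.7 ± 2.67 CPM, SD, n = 2 each). Rel, an activating subunit that is itself induced on stimulation, was at 79.7 and 68.9 CPM in FL and at 105 and 68.5 CPM in KO mice. Only KO mouse 1 stood apart. Nfkb1, whose product is cut to a DNA-binding subunit, was at 86.4 and 91.8 against 88.4 and 80 CPM. Nfkb2 and Relb, the pair that acts in the non-canonical branch, ranged from 17.9 to 24.3 CPM and from 27.1 to 33 CPM over the 4 mice. The log2 fold changes of KO over FL were -0.08 for Rela (SE 0.09), 0.16 for Rel (SE 0.21), -0.16 for Nfkb1 (SE 0.08), -0.22 for Nfkb2 (SE 0.15) and -0.07 for Relb (SE 0.11), with adjusted p from 0.359 to 0.759 by the quasi-likelihood test of edgeR, adjusted after Benjamini and Hochberg. The signs of Rel and Relb depended on the KO mice: Rel was at -0.21 without KO mouse 1 and 0.45 without KO mouse 2, and Relb at -0.24 and 0.09. Without KO mouse 1, Nfkb1 was at -0.25 and Nfkb2 at -0.46. These fits keep 1 mouse in a group, so effect sizes alone are given. Leaving out FL mouse 1 moved Rela to 0.00.

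The inhibitors were higher in KO mice on average, with overlap for Nfkbiz. Nfkbia, which encodes the inhibitor IkB-alpha and is resynthesised after each round of activation, was at 1148 and 1198 CPM in FL mice and at 1657 and 1386 CPM in KO mice (1173 ± 35 against 1522 ± 191 CPM, SD, n = 2). Both KO mice lay above both FL mice. The log2 fold change was 0.30 (SE 0.11, unadjusted p = 0.0358, adjusted p = 0.219, edgeR). Tnfaip3, a ubiquitin-editing enzyme that shuts the pathway down upstream of the kinase complex, was at 141 and 130 CPM in FL and 186 and 146 CPM in KO mice, also without overlap (log2 fold change 0.22, SE 0.13, adjusted p = 0.406, edgeR). KO mouse 2 lay only slightly above FL mouse 1 for Tnfaip3. Nfkbiz, a nuclear relative of the inhibitors that works with NF-kB at secondary response genes, was at 306 and 275 CPM in FL and at 403 and 260 CPM in KO mice. KO mouse 2 was the lowest of the 4. Without KO mouse 1 the log2 fold changes of Nfkbia, Tnfaip3 and Nfkbiz were 0.15, 0.01 and -0.25, and without KO mouse 2 they were 0.45, 0.41 and 0.42. A sum over cells cannot tell fewer cells of one kind from less RNA per cell.

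Tnfaip2 showed the largest difference of the 10. This TNF-induced gene, whose product takes part in forming thin membrane tubes between cells, was at 67 and 47.9 CPM in FL mice and at 157 and 124 CPM in KO mice (57.4 ± 13.5 against 140 ± 23.2 CPM, SD, n = 2). The lower KO mouse was well above the higher FL mouse. The difference was 2.32-fold (log2 1.22, SE 0.19, unadjusted p = 5.4e-04) and missed the threshold after adjustment over all genes (adjusted p = 0.059, edgeR), whereas DESeq2 on the same sums gave an adjusted p of 0.00334. Leaving out a KO mouse gave a log2 fold change of 1.01 without mouse 1 and 1.40 without mouse 2. Leaving out an FL mouse gave 1.48 without mouse 1 and 0.99 without mouse 2. Each of these fits keeps 1 mouse in a group, so effect sizes alone are given. Icam1, an adhesion molecule for leukocyte integrins and a classical NF-kB target, was at 265 and 277 CPM in FL and at 390 and 275 CPM in KO mice, so that KO mouse 2 fell between the FL mice (log2 fold change 0.22, SE 0.17, adjusted p = 0.502, edgeR). Its value was -0.07 without KO mouse 1 and 0.48 without KO mouse 2. In all, 0 of the 10 genes passed an adjusted p of 0.05 in edgeR, beside 0.623% of all 13815 genes tested. DESeq2 called 1 of the 10, beside 713 of the 13815 genes. An unadjusted p below 0.05 in edgeR was found for 2, and its share over all genes was not counted. Values without overlap and higher in both KO mice were found for 3 of the 10 (Nfkbia, Tnfaip2 and Tnfaip3) against 38.9% of all genes, and lower in both KO mice for 0 against 17.2% of all genes. An exact permutation test of 2 mice against 2 cannot give a two-sided p below 0.33, and p-values here measure the spread between these mice.

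**Figure D1:**
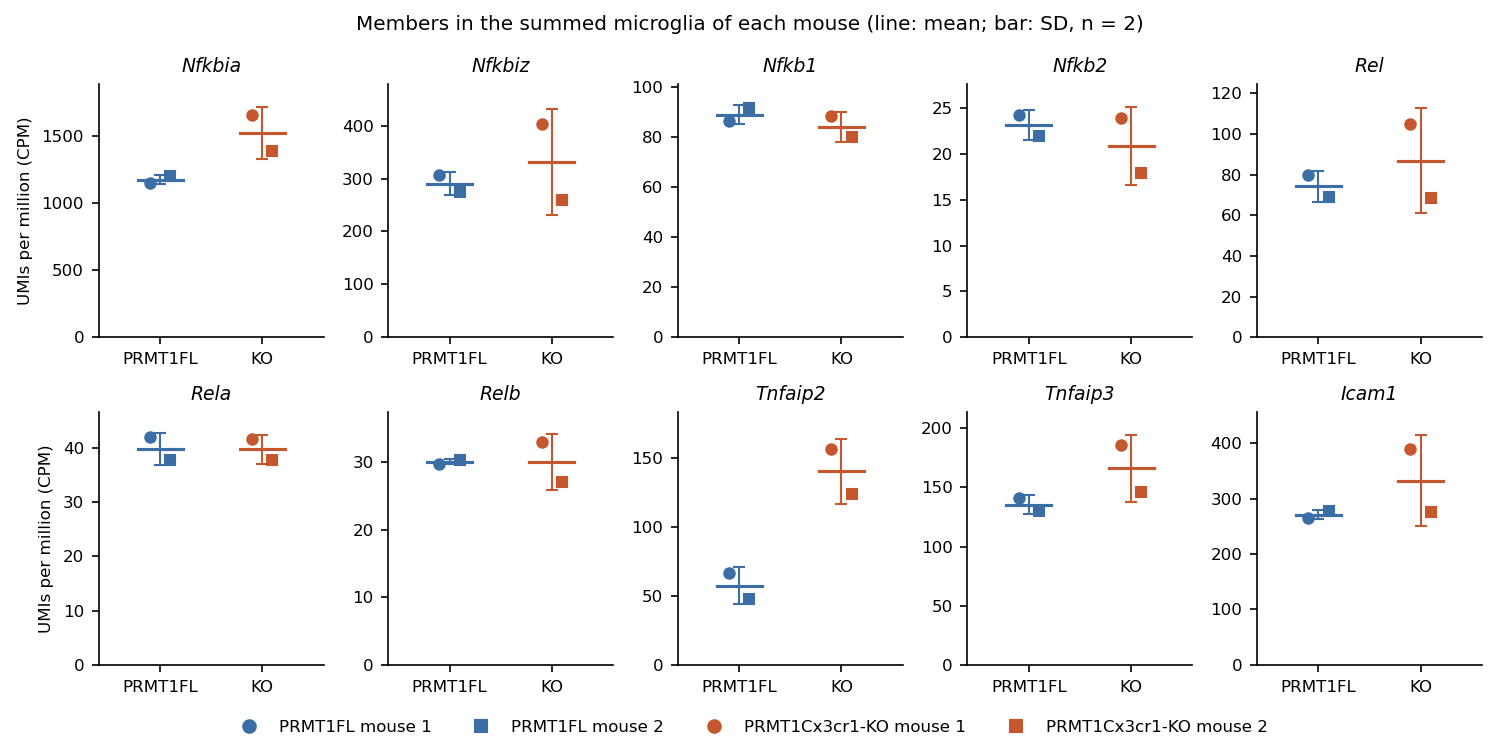
Level of each of the 10 genes in the summed microglia of each mouse, in CPM from 0, with circles for mouse 1 and squares for mouse 2 of each genotype, the mean as a line and the SD as a bar (n = 2). Tnfaip2 lies at 47.9 and 67 CPM in the PRMT1FL mice and at 124 and 157 CPM in the KO mice, whereas the mice overlap for the subunits.

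Cells were then grouped into states by clustering without the 81 genes of the NF-kB lists and without genes that differed between genotypes, so that the members did not define the states. States were named from marker lists whose average was higher in them than in other cells, and a list's genes were not always the leading ones. A2-like cells (ribosomal and mitochondrial genes) were led by Lgals3 and Ccl6 with Cox6a2 and Rps26 behind them, B2-like cells (lysosomal genes) by Gpnmb and Igfbp5, and chemokine-like cells by Dusp2 and Il1b, with Il1a and Tnf behind them. The list that named chemokine-like cells (Ccl3, Ccl4, Cd83, Tnf and Il1a) lies wholly within the NF-kB target genes of the lists. High levels of the members in that state are therefore not independent of its name. D-like cells, named from the homeostatic genes Tmem119, Selplg, Siglech and Sox4, were led by Txnip, Il7r and Crybb1, and the heat shock genes Hspa1b and Hspa1a and the immediate early gene Jun were also among their leading genes. The name does not equate them with cluster D of the study, reported there as lost in KO mice. D-like cells made up 14.9% and 16.1% of FL and 17% and 13.5% of KO cells. The study lists Tnfaip2 and Nfkbia, with P2ry12 and Sall1, for its cluster E, which it reports as gained in KO mice. No state here was named from cluster E. Gdf15 stress-like cells were led by Mgst1 and Pla2g7, with Il7r and Pdlim4 of their list among the leading genes and Gdf15 not. Also tested were MHC class II-like, interferon-like, mitotic-like and shallower mitotic-like states and a cluster led by Ptgs2 and Hcar2, which kept only those names. These 10 states had at least 50 cells in every mouse. A further microglial state, Ms4a7 phagocyte-like (led by Ms4a7 and Clec12a), held 34 and 8 cells in FL and 105 and 530 in KO mice. It was too small to be tested by itself. Its cells are part of all sums over microglia and of the split into state shares and levels. Barcodes marked as likely doublets made up 18.5% of the Ptgs2/Hcar2 cluster and 20.9% of the mitotic-like state.

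In FL mice the feedback genes ran along a steep gradient of states. Nfkbia averaged 4750 CPM in chemokine-like cells (4433 and 5066 CPM), 1809 in D-like, 1438 in the Ptgs2/Hcar2 cluster, 1131 in interferon-like, 967 in mitotic-like and 476 in MHC class II-like cells, and these 6 levels were each apart from the next by more than the range of the 2 mice. It was much lower in B2-like (170 CPM) and Gdf15 stress-like cells (153 CPM), which overlapped each other, and in A2-like (56.9 CPM) and shallow mitotic-like cells (50.7 CPM), which also overlapped. The highest state stood 93.6-fold over the lowest. Nfkbiz (99.8-fold, from 10.4 to 1038 CPM), Tnfaip3 (64.9-fold, from 6.72 to 436 CPM), Tnfaip2 (59.5-fold, from 3.67 to 218 CPM), Rel (30.4-fold, from 7.02 to 214 CPM) and Icam1 (20.4-fold, from 39.9 to 813 CPM) were also highest in chemokine-like cells. The other subunits were flatter. Rela spanned 2.61-fold, from 24.4 CPM in shallow mitotic-like to 63.7 CPM in D-like cells, Nfkb2 spanned 3.94-fold, Relb 4.69-fold and Nfkb1 5.99-fold. Nfkb1 was highest not in chemokine-like but in Gdf15 stress-like cells (166 and 161 CPM), ahead of D-like (134 and 143 CPM) and chemokine-like cells (127 and 144 CPM), which overlapped.

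The order of states for Tnfaip2 in FL mice was chemokine-like (236 and 200 CPM), the Ptgs2/Hcar2 cluster (94.3 and 61.5 CPM), then interferon-like, D-like, Gdf15 stress-like, mitotic-like and MHC class II-like cells between 29.3 and 47.1 CPM, where each state overlapped the next, then B2-like (18.8 CPM), A2-like (7.34 CPM) and shallow mitotic-like cells (3.67 CPM). In KO mice the chemokine-like state was no longer the top. D-like cells were at 547 and 541 CPM and Gdf15 stress-like cells at 494 and 412 CPM, both above the 307 and 322 CPM of chemokine-like cells. Nfkbia, Nfkbiz, Tnfaip3, Rel and Icam1 remained highest in chemokine-like cells in KO mice, at 4697, 1129, 483, 260 and 943 CPM. The chemokine-like state held 669 and 420 cells in FL mice and 662 and 133 in KO mice, and with it 24.3%, 23.4%, 16.3% and 4.64% of all microglial Nfkbia UMIs, lowest in KO mouse 2. With this state left out of the sums, an alternative chosen after seeing the data, the log2 fold change of Nfkbia was 0.50 (adjusted p = 0.0602) and that of Tnfaip2 was 1.43 (adjusted p = 0.0302), both by edgeR.

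**Figure D2:**
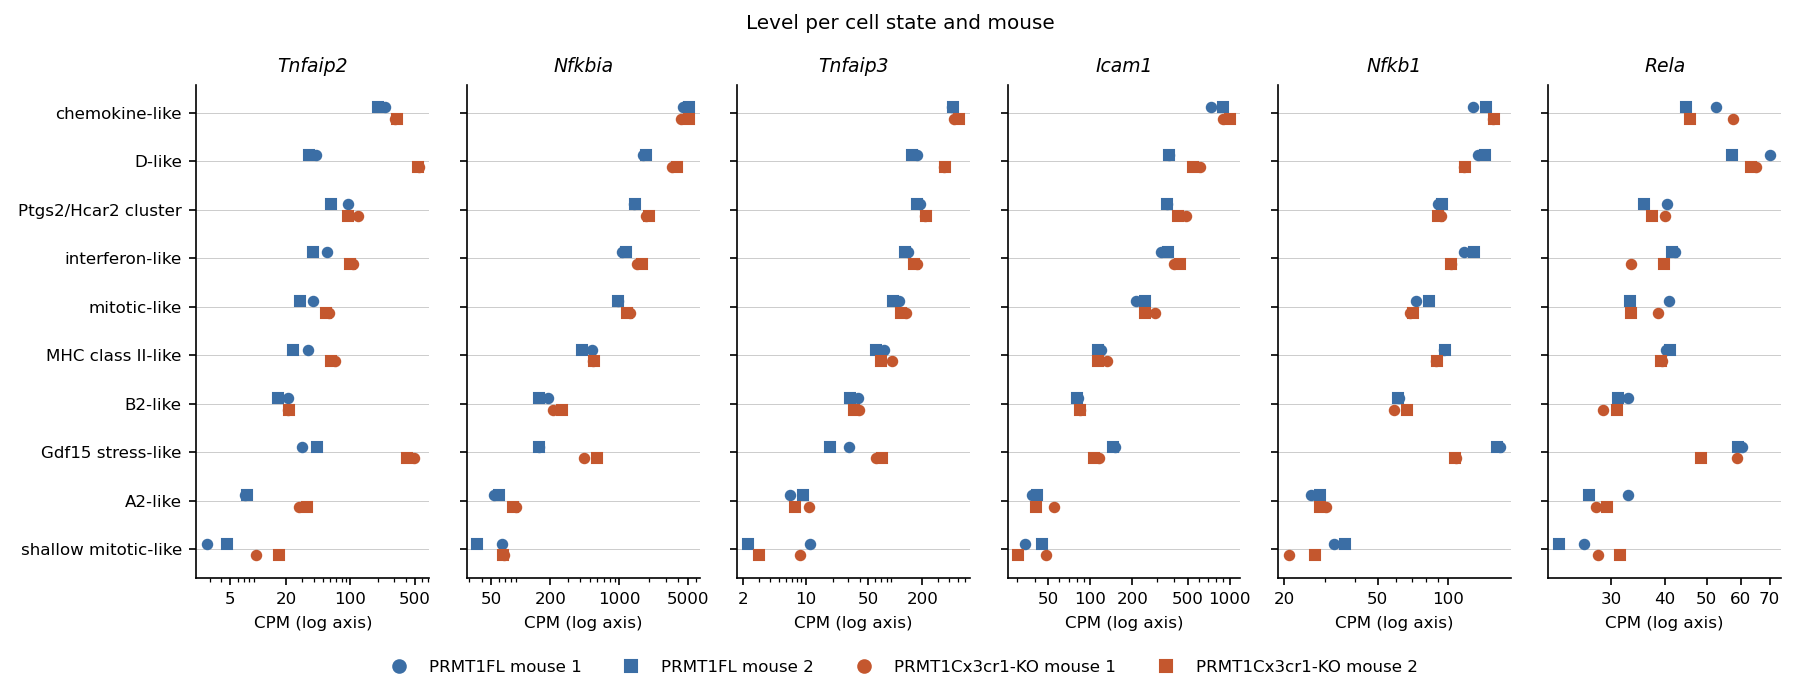
Level of 6 of the genes in 10 microglial states, in CPM on a log axis, with each mouse as a point (blue PRMT1FL, orange KO, circles mouse 1, squares mouse 2). Tnfaip2 runs from 35.7 and 42.8 CPM in PRMT1FL mice to 541 and 547 CPM in KO mice in the D-like state, while Rela stays between 24.4 and 64.1 CPM in the mean of any genotype and state shown.

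The second comparison asked whether the genotypes differed within a state. Of 99 tests of a gene in a state, 16 passed for the 10 genes, against 4.81% of all such tests. The background was uneven: 17.6% of all genes passed in D-like and 20.1% in Gdf15 stress-like cells, against 2.81% in A2-like, 1.72% in B2-like and 1.74% in Ptgs2/Hcar2 cells, 1.58% in interferon-like, 0.905% in chemokine-like, 0.85% in MHC class II-like, 0.339% in mitotic-like and 0.313% in shallow mitotic-like cells. The 5 of 10 genes that passed in each of the first pair of states therefore stand beside the highest backgrounds.

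Tnfaip2 was higher in KO mice in 6 of the 10 states by edgeR. In D-like cells it was at 42.8 and 35.7 CPM in FL mice and at 547 and 541 CPM in KO mice, a 13.8-fold difference (log2 3.79, SE 0.10, adjusted p = 2.4e-11, edgeR). Gdf15 stress-like cells showed a 13.1-fold difference, from 30.2 and 43.3 CPM (24 and 44 UMIs) to 494 and 412 CPM (log2 3.71, SE 0.18, adjusted p = 3.7e-10, edgeR). The 2 mice of each genotype lay close together in both states, far from those of the other. In A2-like cells, where the gene was low, it rose from 7.17 and 7.51 CPM (62 and 49 UMIs) to 27.9 and 33.7 CPM, 3.89-fold (log2 1.96, SE 0.15). Smaller increases passed in MHC class II-like cells (34.6 and 24 CPM to 68.3 and 61.5 CPM, log2 1.13, SE 0.15), in interferon-like cells (55.3 and 39 CPM to 107 and 98.3 CPM, log2 1.09, SE 0.17) and in chemokine-like cells (236 and 200 CPM to 307 and 322 CPM, log2 0.51, SE 0.10, adjusted p = 0.0125 by edgeR). Without FL mouse 2, a fit that keeps 1 FL mouse, the value in chemokine-like cells was 0.41 and did not pass. No overlap of the genotypes was seen in these states, nor in the 4 where Tnfaip2 did not pass, so it does not set the called states apart. The 4 states in which Tnfaip2 did not pass had log2 fold changes of 0.11 (SE 0.13, B2-like), 0.41 (SE 0.19, Ptgs2/Hcar2 cluster), 0.68 (SE 0.15, mitotic-like) and 1.88 (SE 0.53, shallow mitotic-like, on 3, 4, 11 and 33 UMIs). D-like cells therefore held 36% and 37.4% of the Tnfaip2 UMIs of KO microglia and 5.19% and 6.8% of those of FL microglia, beside 10.3%, 8.55%, 8.12% and 9.12% of all UMIs in the same order.

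Among the feedback genes, Nfkbia passed in 4 of the 10 states and Tnfaip3 and Nfkbiz in 2 each, which was not tested against the count for Tnfaip2. The share of all genes that lie higher in both KO mice was not counted within states and was 38.9% over all microglia. Nfkbia lay higher in both KO mice in every tested state but the chemokine-like one. It rose in D-like cells from 1729 and 1888 CPM in FL to 3463 and 3854 CPM in KO mice, 2.02-fold (log2 1.01, SE 0.10, adjusted p = 7.2e-06, edgeR), and in Gdf15 stress-like cells from 152 and 154 CPM to 443 and 589 CPM, 3.7-fold (log2 1.89, SE 0.15, adjusted p = 1.3e-07, edgeR). It also passed at a log2 fold change of 0.49 in A2-like and in interferon-like cells. The first call was lost without FL mouse 1 and the second without FL mouse 1 or 2. Those fits keep 1 FL mouse, so their p-values are not given. In chemokine-like cells, where Nfkbia was highest, the mice overlapped at 4433, 5066, 4277 and 5117 CPM (log2 -0.02, SE 0.09). Tnfaip3 rose in D-like cells from 177 and 155 to 349 and 361 CPM (log2 1.10, SE 0.09) and in Gdf15 stress-like cells from 30.2 and 18.7 to 61.2 and 70.9 CPM (log2 1.62, SE 0.23). Nfkbiz rose in the same states, from 334 and 281 to 595 and 546 CPM in D-like (log2 0.89, SE 0.10) and from 27.7 and 32.5 to 48.7 and 65.7 CPM in Gdf15 stress-like cells (log2 1.09, SE 0.22). Icam1 passed in D-like cells alone, from 366 and 367 to 612 and 545 CPM (log2 0.66, SE 0.09, adjusted p = 1.9e-04, edgeR), and was at 151, 145, 115 and 107 CPM in Gdf15 stress-like cells, where it did not pass (log2 -0.29, SE 0.13).

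Among the subunits only Nfkb1 passed in any state, and it fell. In Gdf15 stress-like cells it was at 166 and 161 CPM in FL and 108 and 107 CPM in KO mice (log2 -0.48, SE 0.13, adjusted p = 0.0128, edgeR). The call was lost without FL mouse 1, FL mouse 2 or KO mouse 2, in fits that keep 1 mouse in a group. In D-like cells Nfkb1 was at 134, 143, 116 and 118 CPM and did not pass (adjusted p = 0.0556, edgeR). Rela, Relb, Rel and Nfkb2 passed in 0 of the 10 states by edgeR. In D-like cells, for example, Rela was at 70.3 and 57.1 CPM in FL and 64.9 and 63.2 CPM in KO mice (log2 0.00, SE 0.10), and Rel at 123, 115, 150 and 119 CPM (log2 0.18, SE 0.11).

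The genotype effect itself differed between states for 14 combinations of the 10 genes and the 10 states (limma voom, 2.45% of all combinations called). That share pools all states and was not counted for each state. Most of the 14 lay in D-like and Gdf15 stress-like cells, where the genotypes differed for 17.6% and 20.1% of all genes by edgeR. The effect on Tnfaip2 lay above the mean of the other states in D-like cells by 2.52 (SE 0.21) and below that mean in chemokine-like cells by -1.14 (SE 0.20), on the log2 scale. The mean set against chemokine-like cells includes D-like and Gdf15 stress-like cells, and Tnfaip2 itself rose in chemokine-like cells (log2 0.51). The immediate early genes did not separate the genotypes in D-like cells, where they summed to 28078 and 24702 CPM in FL and 27714 and 23856 CPM in KO mice, but were higher in KO mice in Gdf15 stress-like cells (4878 and 4151 against 5763 and 5119 CPM), and their part there was not tested.

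**Figure D3:**
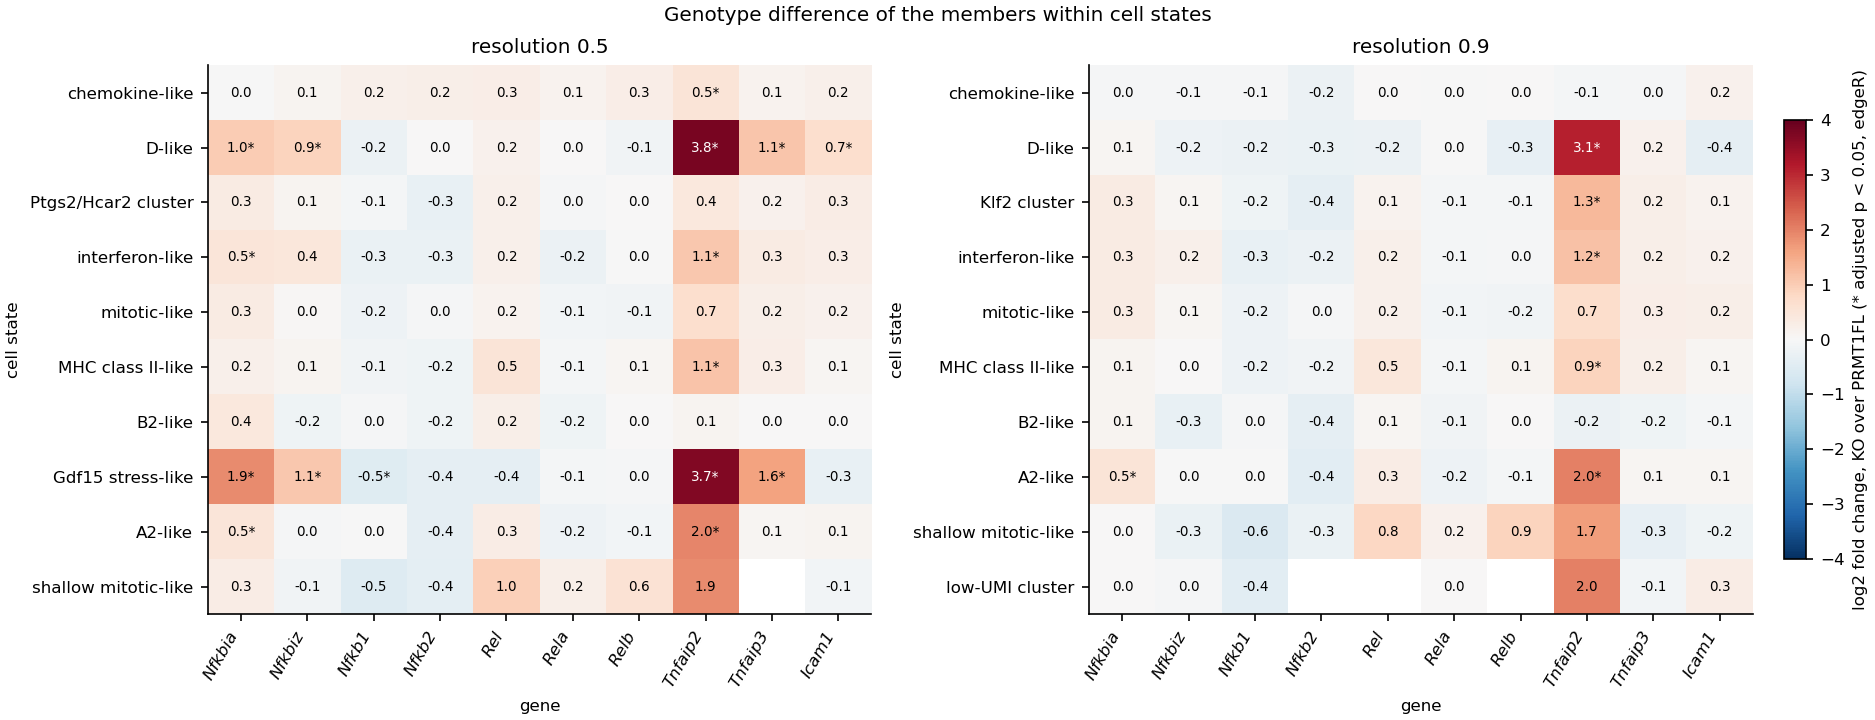
Log2 fold change of KO over PRMT1FL for the 10 genes (columns) within microglial states (rows), at clustering resolution 0.5 on the left and 0.9 on the right, in color from -4 (blue) to 4 (red), with an asterisk where the adjusted p of edgeR is below 0.05. At resolution 0.5 the D-like row holds 5 calls, and at 0.9 it holds Tnfaip2 alone.

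The calls in D-like and Gdf15 stress-like cells were examined further, because these states were redrawn when the clustering resolution was raised from 0.5 to 0.9. A cluster led by Gdf15 then split off that held 33 and 13 cells in FL mice and 520 and 589 cells in KO mice. It took 1.41% and 0.685% of the D-like cells of FL mice and 23.1% and 26.1% of those of KO mice. The larger move was that most cells of the earlier Gdf15 stress-like state, low in Nfkbia, fell under the D-like name: 276 and 293 cells in FL mice (98.9% and 98.7%) and 391 and 693 cells in KO mice (81.3% and 78.6%). They entered a D-like state of 1997, 1623, 1683 and 1735 cells. At the raised resolution this name pooled separate clusters, with Il7r, Slc40a1 and Bank1 leading in some cells and Hspa1b, Hspa1a and Txnip in others. How much the pooling and how much the resolution changed the D-like state was not tested. Given these moves, the new Gdf15 cluster is not the earlier state of that name. With so few FL cells the cluster was not tested, and its levels are given as a description. Nfkbia was at 4623 and 3205 CPM in its FL cells and 5135 and 4618 CPM in its KO cells, beside means of 3466 and 3575 CPM in chemokine-like cells at this resolution, which FL mouse 2 did not reach. Tnfaip3 was at 411, 373, 509 and 440 CPM. Tnfaip2 was at 100 and 232 CPM (19 and 28 UMIs) in FL and at 973 and 747 CPM in KO cells. In KO mice this was the highest level of any microglial state, whereas in FL mice the mean of chemokine-like cells (172 CPM) was above that of the cluster (166 CPM). Immediate early genes summed to 31353, 21062, 26539 and 20775 CPM in it. The cluster held 26.2% and 30.8% of all Tnfaip2 UMIs and 13% and 17% of all Nfkbia UMIs of KO microglia in 4.21% and 5.11% of their UMIs.

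In the redrawn D-like state, Tnfaip2 rose from 45.1 and 32.5 CPM in FL to 334 and 359 CPM in KO mice, 8.62-fold (log2 3.11, SE 0.13, adjusted p = 7.2e-07, edgeR, with 10.7% of all genes called). Nfkbia did not pass there (1526 and 1599 against 1848 and 1575 CPM, log2 0.08, SE 0.11). Tnfaip3 was at 162, 126, 190 and 149 CPM (log2 0.18, SE 0.14), Nfkbiz at 298, 228, 289 and 182 CPM (log2 -0.21, SE 0.19) and Icam1 at 336, 316, 309 and 215 CPM (log2 -0.36, SE 0.15), and none of the 3 passed. The mice overlapped for Nfkbia, Tnfaip3 and Nfkbiz. Immediate early genes summed to 26037, 22196, 23112 and 14819 CPM in this state, lowest in KO mouse 2, which had brought the most cells from the earlier Gdf15 stress-like state.

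The cells of each earlier state that were D-like at the raised resolution were therefore summed apart, a choice made after seeing the data. Of the earlier D-like cells, 1587 and 1218 cells in FL and 1206 and 937 cells in KO mice stayed D-like, and 8.71% of all genes were called among them by edgeR. Tnfaip2 rose there from 41.5 and 32.8 to 339 and 397 CPM, 9.46-fold (log2 3.24, SE 0.12, adjusted p = 5.1e-10, edgeR). Nfkbia rose from 1701 and 1843 to 2267 and 2697 CPM, 1.34-fold (log2 0.43, SE 0.12, adjusted p = 0.0319, edgeR), and Tnfaip3 from 175 and 146 to 229 and 249 CPM, 1.43-fold (log2 0.52, SE 0.10, adjusted p = 0.00542, edgeR). The rises of these 3 genes thus passed without the cells of the Gdf15 cluster and without those of the earlier Gdf15 stress-like state, and their log2 fold changes were lower than over all earlier D-like cells (3.79, 1.01 and 1.10), a difference that was not tested. Nfkbiz, at 326, 255, 353 and 318 CPM (log2 0.16, SE 0.12), and Icam1, at 354, 342, 356 and 301 CPM (log2 -0.13, SE 0.11), did not pass. Immediate early genes overlapped between the genotypes, at 29194, 25731, 28374 and 25063 CPM. Among the earlier Gdf15 stress-like cells that became D-like, 13% of all genes were called. Tnfaip2 rose from 28.6 and 24 CPM (22 and 23 UMIs) to 335 and 347 CPM (log2 3.76, SE 0.19, adjusted p = 1.1e-16, edgeR), Nfkbia from 149 and 121 to 333 and 345 CPM (log2 1.40, SE 0.14, adjusted p = 8.2e-09, edgeR) and Tnfaip3 from 31.2 and 15.6 CPM (24 and 15 UMIs) to 40 and 41.3 CPM (log2 0.91, SE 0.28, adjusted p = 0.0253, edgeR). Nfkbiz (log2 0.36, SE 0.27) and Nfkb1 (log2 -0.36, SE 0.14) did not pass in these cells. Immediate early genes overlapped there too, at 4744, 3917, 4546 and 3777 CPM.

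Over all states at the raised resolution, 6 of 97 tests passed for the 10 genes against 2.59% of all tests, namely Tnfaip2 in D-like, A2-like (log2 2.01), interferon-like (log2 1.17) and MHC class II-like cells (log2 0.88) and in a cluster led by Klf2 (log2 1.31), and Nfkbia in A2-like cells (log2 0.52). Nfkbia in interferon-like cells did not pass (log2 0.34, adjusted p = 0.128, edgeR). Tnfaip2 in chemokine-like cells was at 200, 144, 206 and 137 CPM (log2 -0.07). The mean of the genotype effects in the 10 states of resolution 0.5 was also taken from 1 fit, with small states weighing as much as large ones. By limma voom (13.4% of 12166 genes called), this mean was 1.53 for Tnfaip2 (SE 0.16, adjusted p = 1.4e-08), 0.56 for Nfkbia (SE 0.07, adjusted p = 1.3e-06), 0.37 for Tnfaip3 (SE 0.12, adjusted p = 0.0375) and -0.16 for Nfkb1 (SE 0.05, adjusted p = 0.0125). That fit takes sums of several states from each mouse, with an estimated correlation of 0.105 within mice. Its p-values therefore do not rest on mice alone. With 1 sum per mouse, edgeR gave adjusted p of 0.059 for Tnfaip2, 0.219 for Nfkbia, 0.406 for Tnfaip3 and 0.359 for Nfkb1. With the finer states in the same limma voom fit, Tnfaip2 (1.30, adjusted p = 8.7e-05) and Nfkb1 (-0.23, adjusted p = 0.0351) passed, and Nfkbia (0.19, adjusted p = 0.308) and Tnfaip3 (0.04, adjusted p = 0.921) did not.

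**Figure D4:**
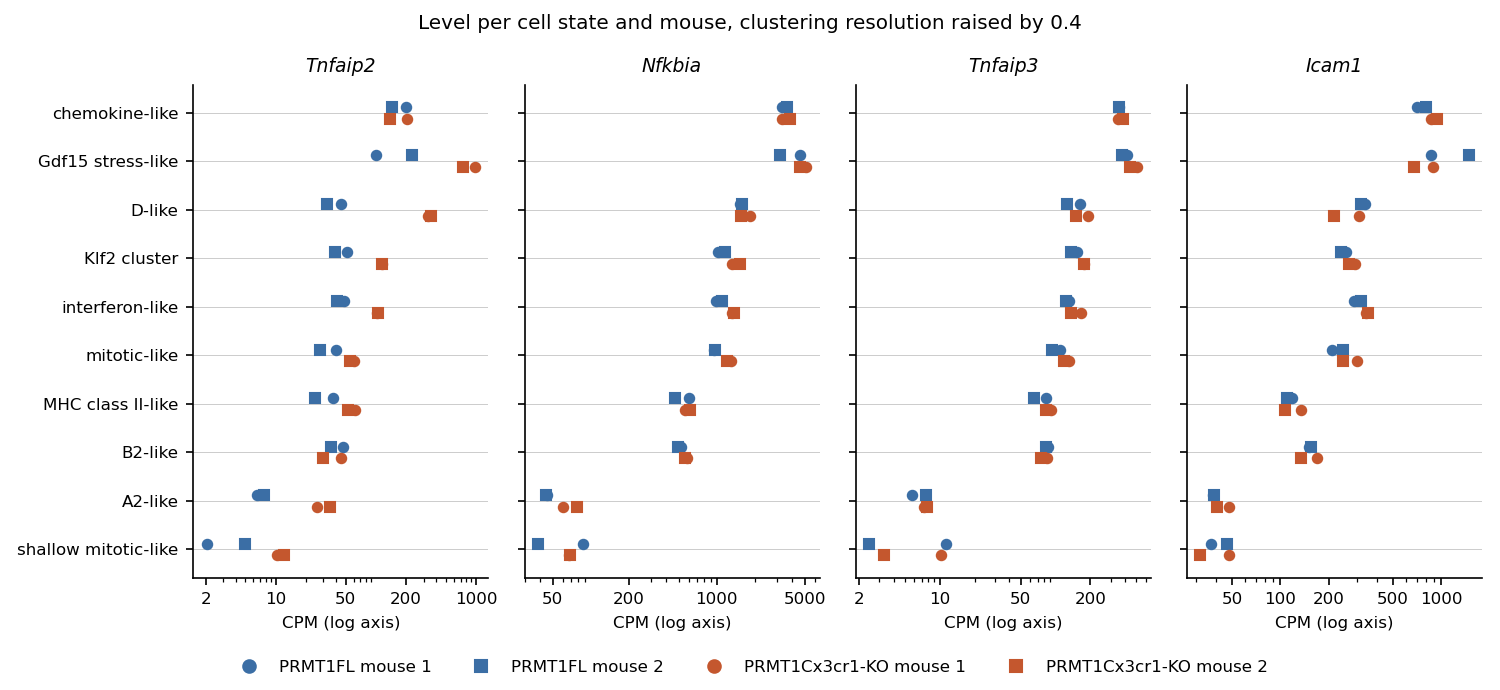
Level of Tnfaip2, Nfkbia, Tnfaip3 and Icam1 in 10 microglial states at the raised clustering resolution, in CPM on a log axis, with each mouse as a point (blue PRMT1FL, orange KO, circles mouse 1, squares mouse 2). In D-like cells the genotypes overlap for Nfkbia and Tnfaip3 and lie apart for Tnfaip2, at 32.5 and 45.1 against 334 and 359 CPM.

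The genotype difference in the summed microglia was also split into a part from state shares (how many of the UMIs each state holds) and a part from levels within states, as the mean over the 4 pairs of an FL with a KO mouse. For Tnfaip2, the difference of 82.9 CPM was made of 1.6 CPM from shares (-7.79 to 12.3 over pairs) and 81.3 CPM from levels (63.9 to 100), of which D-like cells gave 45.6, the Ptgs2/Hcar2 cluster 12.4 and Gdf15 stress-like cells 9.19 CPM. At the finer resolution the shares gave 20.1 CPM and the levels 62.6 CPM (47.7 to 78.9). The level part was positive in every pair of mice at both resolutions. For Nfkbia, the difference of 348 CPM was made of -61.6 CPM from shares (-267 to 133) and 410 CPM from levels (326 to 482) at resolution 0.5, and of 189 CPM from shares (-5.47 to 370) and 160 CPM from levels (95.3 to 211) at 0.9, where the share of the Gdf15 cluster alone gave 196 CPM. The split of Nfkbia thus moved with the definition of the states, as did that of Icam1, whose level part was 71.1 CPM at the first resolution and 19.8 CPM, from -9.39 to 50.4 over pairs, at the second.

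**Figure D5:**
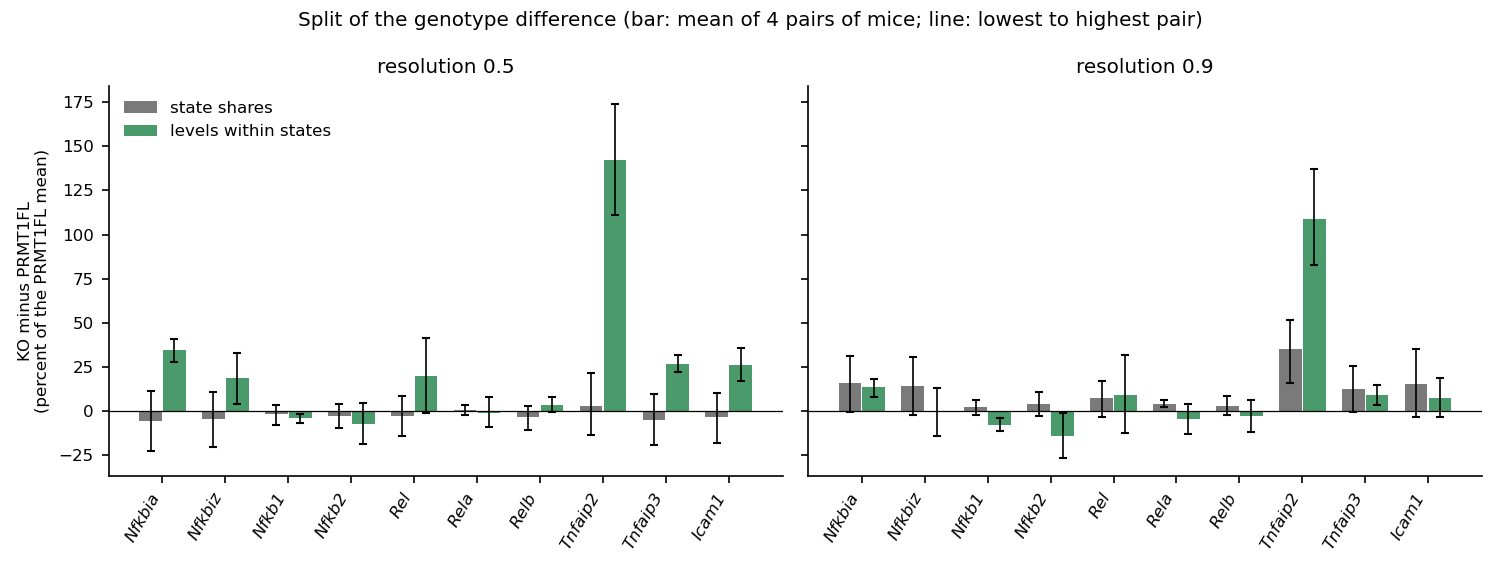
Genotype difference of each gene in microglia, KO minus PRMT1FL in percent of the PRMT1FL mean, split into the part from state shares (gray) and the part from levels within states (green), at clustering resolutions 0.5 and 0.9, with bars as means of 4 pairs of mice and lines from the lowest to the highest pair. The level part of Tnfaip2 is 142% at 0.5 and 109% at 0.9, and that of Nfkbia 34.9% and 13.6%.

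The number of cells with a Tnfaip2 transcript followed the same pattern. After each microglial cell was thinned to 1000 UMIs (10584, 7528, 9724 and 10231 cells kept, 273 to 463 shallower cells left out per mouse), a Tnfaip2 UMI was found in 4.36% and 3.04% of cells in FL and in 11.5% and 10.6% in KO mice. At their own depth the shares were 17.7%, 16.5%, 34.5% and 32.4%. Non-myeloid cells, taken as a measure of background although some of their types express NF-kB genes too, had a Tnfaip2 UMI in 1 of 430 cells (0.233%, thinned likewise, median depth 2922 UMIs against 6881 in microglia). The KO shares were concentrated in D-like cells, at 30% and 32.7% against 3.81% and 3% in FL mice, and in Gdf15 stress-like cells, at 30% and 35.5% against 3.37% and 2.53%. In chemokine-like cells they were 15.3% and 9.57% in FL and 17.7% and 22% in KO mice. Nfkbia was found in 38.7% and 37.7% of thinned microglia in FL and in 49.8% and 40.3% in KO mice, and in 93.9% to 96.7% of chemokine-like cells of every mouse. Its share in non-myeloid cells was 19.3%. The shares in A2-like cells (4.87% to 8.69%), in B2-like cells (11.5% to 18.2%) and in shallow mitotic-like cells (2.78% to 8.68%) were lower. Those states were deeper, with medians of 4620 to 11643 UMIs against 2922 in non-myeloid cells, and 9.66% of non-myeloid barcodes were marked as doublets. How much of the 19.3% is background was not tested. Gdf15 stress-like cells of FL mice, the baseline of the 3.7-fold difference in that state, were at 12.7% and 12.3%. Those of KO mice were at 26.4% and 28.1%. Rela, at 3.72% to 4.34% of microglia, lay below its share of 6.74% in non-myeloid cells.

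Within a state and mouse, the genes were also compared between cells with and without a Tnfaip2 UMI, as the log2 ratio of their levels in cells thinned to 1000 UMIs. In all 14 sets of a state in a mouse that had enough cells, Nfkbia was higher in the cells with Tnfaip2 (median log2 ratio 0.55, from 0.18 to 1.24), and so was Tnfaip3 in 11 of 11 sets (median 0.48) and Icam1 in 12 of 13 (median 0.51). The median over all 1897 genes with enough UMIs was 0.02, with a 5th to 95th percentile of -0.20 to 0.35. Nfkbiz (0.18, above 0 in 8 of 10 sets), Nfkb1 (0.13, in 8 of 10), Rel (0.11, in 4 of 8) and Rela (0.26, in 3 of 4) lay within that range. Nfkb2 (1.07, in 3 of 3) and Relb (0.44, in 2 of 3) lay above it, on few sets. A ratio needed at least 10 UMIs of the gene in the cells with and in the cells without Tnfaip2. For genes this low the rule can favor sets with a high ratio, so no conclusion is drawn from these values. At the cells' own depth, where more sets had a ratio, Nfkbiz (0.48, in 27 of 29) and Nfkb2 (0.33, in 24 of 28) lay above the range over all genes of -0.17 to 0.16, as did Nfkbia, Tnfaip3, Icam1 and Rel (0.19 to 0.54), while Relb (0.11, in 27 of 31) lay within it. The ratios around Nfkbia were larger. Cells with an Nfkbia UMI had more Nfkbiz (median 1.78, in 24 of 24 sets), Tnfaip3 (1.46, in 20 of 20), Icam1 (1.35, in 28 of 28) and Tnfaip2 (1.03, in 16 of 16), and also Rel (0.54, in 16 of 18), whereas Nfkb1 stood at 0.04 (in 12 of 21). Cells of a set share a library, so these ratios are descriptions and not replicates.

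Across the 40 sums of 10 states in 4 mice, Nfkbia tracked Nfkbiz and Tnfaip3 (Pearson r = 0.98 for each, on log2(CPM + 1)), Icam1 (0.97) and Rel (0.92), with Tnfaip2 at 0.80. Within FL mice Tnfaip2 and Rel stood level (0.89 each), and Tnfaip2 was at 0.93 with Rel and 0.90 with Tnfaip3. Within KO mice Nfkbia was at 0.95 with Rel and 0.77 with Tnfaip2, and Tnfaip2 at 0.76 with each of Rel and Tnfaip3. Not all of its correlations were lower in KO mice. Tnfaip2 was at 0.66 with Rela in FL and 0.93 in KO mice, and at 0.80 and 0.84 with Nfkb1. With Nfkbiz, Icam1, Nfkb2 and Relb it was lower in KO than in FL mice. The sums of a mouse come from 1 library and states differ in depth, so no test was made. Of 7316 genes with a mean of at least 10 CPM, the 5 most like Tnfaip2 were Slc7a11 (0.96), which encodes a cystine-glutamate exchanger, Sqstm1 (0.94), an autophagy receptor, Dhx40 (0.87), Tnfrsf12a (0.87), the receptor of the cytokine TWEAK, and Nfe2l2 (0.86), a transcription factor of the oxidative stress response. None of these is among the 5 most like Nfkbia, which were the immediate early genes Ier2 and Fos, Ppp1r15a, Cebpb and Ier3 (0.98 each).

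The remaining pathway was examined through 4 lists with 71 further genes, 70 of which were tested. In the summed microglia 0 of 13 other inhibitors and feedback genes passed by edgeR (median log2 fold change 0.09), as did 0 of 26 kinases and adaptors (-0.01) and 0 of 8 receptors (-0.11), beside a median of 0.00 over all genes. Of 23 target genes tested (24 listed, Clec4e not tested), 1 rose and 0 fell (median 0.11). The gene that rose was Ccl2, a monocyte-attracting chemokine, from 45.1 and 42.6 CPM in FL to 86.6 and 85.6 CPM in KO mice (log2 fold change 0.90, SE 0.07, adjusted p = 0.0167, edgeR). The call was lost without FL mouse 1 or FL mouse 2. Those fits keep 1 FL mouse and lost most calls over all genes, so the loss is not particular to Ccl2. Cxcl2, a neutrophil-attracting chemokine, was at 268, 187, 460 and 462 CPM (0.94, adjusted p = 0.073, edgeR) and Tab1, an adaptor of the upstream kinase TAK1, at 7.42, 8.27, 12.7 and 11.5 CPM (0.55, adjusted p = 0.0821, edgeR). Neither passed. All 3 genes were higher in both KO mice, as were 38.9% of all genes, and they were named for having the lowest p.

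Within D-like cells at resolution 0.5, 17 of 23 target genes rose and 1 (Ccl5) fell, with a median log2 fold change of 0.63 beside 0.00 over all genes, of which 17.6% were called. Those that rose included the cytokine genes Tnf and Il1a, the chemokine genes Ccl2, Ccl4, Cxcl1, Cxcl2 and Cxcl10, the adhesion molecule Vcam1 and the mitochondrial superoxide dismutase Sod2. Gdf15 stress-like cells had 14 of 21 target genes up and 0 down (median 0.70), where 20.1% of all genes were called. Both states were redrawn at the raised resolution, at which Tnfaip2 alone of the members passed in D-like cells. The target genes were not counted at that resolution. Of the upstream genes in D-like cells, 2 of 24 kinases and adaptors rose (Irak2 and Map3k7), 2 fell (Irak1 and Traf5), 1 of 7 receptors rose (Tlr2), and 2 of 12 other inhibitors rose (N4bp1 and Nfkbid). In chemokine-like cells Ccl2 and Cxcl2 rose and Ccl3 fell among 23 target genes.

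Outside microglia, cells were too few for a test in every mouse. Deep border macrophage-like cells, with 45, 64, 46 and 85 cells and 37.1% of barcodes marked as doublets, had Tnfaip2 at 56.7 and 52.9 CPM in FL and 155 and 143 CPM in KO mice, and Nfkbia at 1111 and 1058 against 2036 and 1847 CPM. Both genes lay higher in both KO mice there, on 32 to 209 Tnfaip2 UMIs. Neutrophil-like cells, almost all from FL mice, carried Tnfaip2 at 532 and 340 CPM.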

How the data were processed

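The members and gene lists were chosen with earlier results of these data known. Per the labels and the methods of the study, reads were aligned to mm10 with Cell Ranger 3.1.0, and the authors deposited raw UMI counts per gene and barcode, not normalized, in 4 matrices. The submitters' processing notes also name Seurat 3.2.0 and Scanpy 1.5.2. Kept barcodes had 200 to 6000 genes and at most 10% mitochondrial UMIs. Cells were clustered with Scanpy 1.11.5 (2000 variable genes, 20 components, 15 neighbours, Leiden resolution 0.5, seed 1), leaving out 826 genes (749 that differed between genotypes and the 81 of the NF-kB lists, with overlap). Likely doublets were marked at 0.8% of barcodes per 1000 cells and kept. States were named from markers taken from the study and common knowledge. Counts were summed per mouse over microglial clusters and per state with at least 50 cells in every mouse, and tested in R 4.3.3 with edgeR 4.0.16 (TMM, filterByExpr, quasi-likelihood, Benjamini-Hochberg at 0.05 over all genes tested). Differences between states were tested with limma 3.58.1 (voom, mouse as a random block, estimated correlation 0.105), each state against the mean of the others, and DESeq2 1.42.0 was an alternative. The fits were tested on simulated data. No inhibitor of transcription was used while the cells were isolated, per the methods of the study. The named genes are the 10 members, the pathway genes past the threshold (or, if fewer than 3, the 3 with the lowest p) and the 5 genes most like Tnfaip2 and Nfkbia. Intervals and floors would cover counting error only, and none are given.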

Additional observations from a re-analysis of the deposited data

Results flagged for a closer look

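The genotype effect differed between cell states for 14 combinations of a gene and a state, tested as the log2 fold change of KO over FL in the state minus the mean of those in the other microglial states (limma voom with the mouse as a block, adjusted over 12166 genes), where 2.45% of all combinations passed. That share pools all states, and it was not counted for D-like and Gdf15 stress-like cells, which hold most of the 14. Each state is part of the mean that the others are set against, so the 14 are linked. An effect below that mean can still be a rise, as for Tnfaip2 in chemokine-like cells (log2 0.51).

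For Tnfaip2 the effect was larger than in the other states by 2.52 in D-like (SE 0.21, adjusted p = 3.2e-09) and by 2.42 in Gdf15 stress-like cells (SE 0.40, adjusted p = 5.4e-05), and smaller in the B2-like state (-1.55, SE 0.26, adjusted p = 0.00158), in the Ptgs2/Hcar2 cluster (-1.22, SE 0.19, adjusted p = 4.9e-04) and in chemokine-like cells (-1.14, SE 0.20, adjusted p = 0.00345), all by limma. For Nfkbia it was larger in D-like (0.52, SE 0.10, adjusted p = 0.00134) and Gdf15 stress-like cells (1.52, SE 0.22, adjusted p = 6.4e-06) and smaller in chemokine-like cells (-0.67, SE 0.10, adjusted p = 7.4e-04, limma). Tnfaip3 differed by 0.82 in D-like (SE 0.15, adjusted p = 3.6e-04) and 1.45 in Gdf15 stress-like cells (SE 0.38, adjusted p = 0.00817), Icam1 by 0.58 (SE 0.11, adjusted p = 5.1e-04) and Nfkbiz by 0.77 in D-like cells (SE 0.18, adjusted p = 0.00679), all by limma. Nfkb1 differed by 0.41 in chemokine-like (SE 0.08, adjusted p = 0.0106) and by -0.31 in Gdf15 stress-like cells (SE 0.11, adjusted p = 0.0457, limma).

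Without FL mouse 1, 4 combinations passed, and without FL mouse 2, 7, and the others kept their direction. At the raised clustering resolution 3 combinations passed, all of Tnfaip2: D-like cells at 2.06, B2-like cells at -1.75 and chemokine-like cells at -1.50. Beside these values stand the cells that changed state: D-like and Gdf15 stress-like cells lost 18.3% to 26.1% of a state to the separate Gdf15 cluster in KO mice and 0.358% to 1.41% in FL mice, and 98.9%, 98.7%, 81.3% and 78.6% of the Gdf15 stress-like cells became D-like, where immediate early genes then summed to 26037, 22196, 23112 and 14819 CPM.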

How the results depend on the processing

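Of 476 recomputed values, 347 stayed the same by set rules. Tests kept their direction and their side of the threshold, and counts changed by no more than a fixed fold. Shares of cells moved by less than the SD between mice. Level parts and ratios between cells moved by less than a fixed fraction of their range. Of the rest, 42 moved further, 42 lost a call, 31 gained one and 14 changed sign. Among the 10 genes, 0 passed in microglia by edgeR. Tnfaip2 alone passed, so that the count was 1, with DESeq2, with a replicate block, over all cells within the limits, over all deposited barcodes, with cells thinned to 1000 UMIs and, chosen after seeing the data, without chemokine-like cells. Of all genes tested, these settings called 713, 274, 749, 765, 138 and 166 in the same order. The count of the 10 genes was 2 without the filter on low counts and 4 for the unweighted mean of the effects in the states, where Relb turned to 0.05. The p-values of that mean do not rest on mice alone. Leaving out each mouse in turn gave 0 to 6 genes, with ranges of -0.25 to 0.42 for Nfkbiz, -0.21 to 0.45 for Rel, -0.17 to 0.02 for Rela, -0.24 to 0.09 for Relb and -0.07 to 0.48 for Icam1. Over all genes the count of 86 became 78 with DESeq2-type size factors, 274 with the replicate block, 713 with DESeq2, 1690 without the filter, 4 without either FL mouse, 2621 without KO mouse 1 and 872 without KO mouse 2. Same-numbered mice did not deviate together (correlation -0.0175). This correlation cannot exclude a pairing, because differences in state shares between mice also enter it. The replicate block gave 23 calls within states in place of 16.

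Within states, leaving out a mouse gave 13 to 22 calls, and clustering on all variable genes gave 14. Raising the resolution by 0.4 gave 6 calls and turned Icam1 (-0.36) and Nfkbiz (-0.21) in D-like cells and Tnfaip2 in chemokine-like cells (-0.07). Among cells that were D-like at both resolutions, chosen after seeing the data, Icam1 turned to -0.13 and Nfkbiz (0.16) was lost, and among Gdf15 stress-like cells that became D-like Nfkbiz (0.36) and Nfkb1 (-0.36) were lost, while Tnfaip2, Nfkbia and Tnfaip3 passed in both sets. The differences between states, 14 calls, became 3 at the raised resolution, where Icam1 (-0.43), Nfkbia (-0.11) and Nfkbiz (-0.10) in D-like cells changed sign, 4 to 12 when a mouse was left out, and 18 in edgeR with the mouse as a fixed term. The level part of the genotype difference was then 160 CPM for Nfkbia and 62.6 CPM for Tnfaip2. The cause of these changes was not tested beyond the cells that moved between states. At the raised resolution the D-like name also pooled separate clusters. Other pathway genes, 1 call, gave 5 with DESeq2, 13 without the filter, 3 with the replicate block and 0 to 26 when a mouse was left out. The difference of the share of cells with a Tnfaip2 UMI, 7.34 percentage points, was 10.2 at 2000 UMIs and 16.3 at each cell's own depth. With 2 mice a group, small differences of the subunits cannot be told from 0.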
